A study of Mus musculus with 10 samples.

Results

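Nr4a1, Nr4a2, Nr4a3, Egr1, Egr2, Egr3, Cd69, Ier2 and Ier3 are genes that T cells switch on soon after their antigen receptor is engaged, and their RNA was measured here in regulatory T cells (Tregs) of the gut and spleen, with and without the transcription factor c-Maf. The 9 genes were taken by symbol from a count table of 27179 genes, and all 9 passed the filter on low counts that left 13214 genes for testing.

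Tregs, marked by the transcription factor Foxp3, hold immune responses in check. Here they were isolated as CD4+, TCR beta+ cells carrying a YFP reporter of Foxp3, from gut (colon together with small intestine) and from spleen of C57BL/6 mice. Control mice, called WT, were Foxp3Cre-YFP, so they too carry the Cre recombinase and reporter under Foxp3 control. In the other mice, called Maf-KO and written Maffl/fl x Foxp3Cre-YFP, the same Cre deletes a floxed Maf, the gene of c-Maf, in cells that express Foxp3. There were 2 WT gut libraries (replicates 1 and 3), 2 Maf-KO gut libraries (replicates 2 and 3), 3 WT spleen and 3 Maf-KO spleen libraries (replicates 1 to 3 each), and no treatment was named. The labels give no age. Nor do they tie a replicate to an animal, and p-values therefore rest on the variation among these libraries alone, which may be technical.

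When a T cell receptor binds its antigen, kinases at the membrane release calcium and activate the MAP kinase and NF-kappaB pathways, and within minutes to hours a first set of genes is transcribed. Nr4a1 (Nur77), Nr4a2 (Nurr1) and Nr4a3 (Nor1) encode orphan nuclear receptors, whose induction in T cells follows receptor signal strength, and the family helps to maintain Foxp3 expression and Treg identity. Egr1, Egr2 and Egr3 encode zinc finger transcription factors induced by the same receptor. Egr2 and Egr3 are known to raise inhibitors of receptor signalling, and their activity is held down by the corepressors Nab1 and Nab2. Cd69 is a surface lectin that binds the sphingosine phosphate receptor S1PR1, takes it off the membrane and so keeps lymphocytes in tissue. Ier2 encodes a nuclear immediate-early protein, and Ier3 a small stress-responsive protein that limits cell death.

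The sequences upstream of the genes are shown because the 3 Nr4a genes moved together between tissues while Egr2 moved the other way. RefSeq promoter windows of GRCm38.p6 were given for 5 of the 9 genes, Nr4a1, Nr4a2, Nr4a3, Egr2 and Ier3, and the 250 bases before each annotated start were searched. The motif TGACG, the core of the cyclic AMP response element bound by CREB and ATF factors, was counted on both strands, where it reads CGTCA on the other strand. Capitals mark it in the Nr4a2, Nr4a3 and Egr2 sequences. In Nr4a1 they mark TGCGTCA, which holds CGTCA within it, and in Egr2 they also mark a CArG box, the binding sequence of serum response factor. All run 5′ to 3′ on the strand of the gene, from chr15:101266596-101266845 (plus strand) for Nr4a1, chr2:57124004-57124253 (minus) for Nr4a2, chr4:48045084-48045113 (plus) for Nr4a3 and chr10:67537795-67537824 (plus) for Egr2. The Nr4a1 and Nr4a2 sequences are the whole 250 bases before the start, and the other pair are stretches of 30 bases.
Nr4a1: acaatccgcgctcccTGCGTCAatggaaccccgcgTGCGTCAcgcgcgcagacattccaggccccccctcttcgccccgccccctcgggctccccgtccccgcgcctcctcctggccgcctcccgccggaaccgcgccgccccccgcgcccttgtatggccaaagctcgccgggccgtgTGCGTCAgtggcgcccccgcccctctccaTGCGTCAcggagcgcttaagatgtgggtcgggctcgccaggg
Nr4a2: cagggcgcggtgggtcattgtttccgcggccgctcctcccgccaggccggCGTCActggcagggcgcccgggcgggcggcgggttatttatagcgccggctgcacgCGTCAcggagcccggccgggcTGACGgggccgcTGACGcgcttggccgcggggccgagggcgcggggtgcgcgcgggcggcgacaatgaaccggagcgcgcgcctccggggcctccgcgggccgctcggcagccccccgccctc
Nr4a3: tcccatgtCGTCAcatTGACGtctcgcatt
Egr2: gtCCATATATGGgcagcgaCGTCAcgggta

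Each of the 3 Nr4a windows held 4 copies of TGACG, counting both strands. Of all 32851 windows of this length, 17.8% held at least 1 copy, 3.9% at least 2 and 0.137% (45 windows) at least 4. In the Nr4a1 window all 4 copies lay within TGCGTCA, a sequence found at least once in 1.75% of windows and 3 or more times in 1 window, that of Nr4a1. The printed stretch of Nr4a3 holds 2 of its 4 copies, 192 to 221 bases before the start. The full palindrome TGACGTCA, present in 1.55% of windows, was in none of the windows of the 5 genes. Egr2 had 5 windows at different annotated starts, of which 4 held 1 CArG box (present in 1.47% of windows) and 3 held 2 copies of TGACG. Those 3 windows overlap and share 1 CArG box and the same 2 copies, so the matches are 2 distinct boxes and 2 distinct copies, and the Ier3 window held no match to these motifs. The Nr4a windows were rich in G and C (74.4% for Nr4a1, 80% for Nr4a2 and 63.6% for Nr4a3) against a median of 52.4% over all windows. This was not particular to them, as the Egr2 windows held 54 to 71.2% and the Ier3 window 54.4%. The shares of windows with a motif were not matched for G and C. The motifs were chosen after the sequences were seen, and a match describes the letters and does not show a bound site.

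The libraries held between 8567035 and 13983965 counts, and counts are given as CPM, scaled to each library's normalised total. Maf had 859 and 918 counts in WT gut against 7 and 3 in Maf-KO gut, and 312 to 484 in WT spleen against 2 to 10 in Maf-KO spleen. Foxp3 was at 156 to 211 CPM in gut and 114 to 134 CPM in spleen. All 7 Treg markers examined were detected in every library, summing to 8235 to 9386 CPM in gut and 3140 to 3720 CPM in spleen. Most of the gut sum was Ctla4, at 4320 to 5640 CPM in gut and 239 to 455 in spleen. Il2ra went the other way, at 307 to 412 CPM in gut and 484 to 760 in spleen, and Cd3e and Ikzf2 overlapped between tissues. Markers of B and plasma cells (6 of 6 detected, Jchain the most abundant) summed to 1168 to 6392 CPM in gut and 189.5 to 447.3 CPM in spleen. The 9 markers of gut epithelium, mostly Epcam, summed to 139 to 175.8 CPM in gut and 32.15 to 68.51 CPM in spleen. Cdh1 was at 5.27 and 6.15 CPM in WT gut, 25.2 and 19.8 in Maf-KO gut, and 0.539 to 4.01 in spleen. The keratin Krt18 was at 1.13 to 2.36 and 0.0974 to 0.65. Other keratins reached 2.51 (Krt8), 3.11 (Krt19) and 0.628 CPM (Krt20) in gut, and at most 0.0889 CPM (Krt19) in spleen. Fabp2 was at 0.239 to 1 CPM in gut and 0 in spleen. Vil1 (0 to 0.957 and 0.108 to 0.616) and the goblet cell mucin Muc2 (0 to 0.087 and 0 to 0.308) overlapped. Sums of the other lists were higher in spleen for 8 markers of stroma and endothelium (44.52 to 77.48 CPM in gut, 115.1 to 192 in spleen, mostly the endothelial and leukocyte gene Pecam1) and 6 of CD8 T, NK and innate lymphoid cells (21.6 to 33.83 and 43.06 to 100.8). The fibroblast genes went the other way, with the collagen Col3a1 at 0.696 to 8.16 CPM in gut and 0 to 0.178 CPM in spleen, Dcn at 0.174 to 5.56 and 0 to 0.178, and Pdgfra at 0 in every spleen library and in 1 gut library. The 9 myeloid markers ranged from 84.66 to 249.1 CPM in gut and from 129.7 to 851 in spleen, with the neutrophil genes S100a8 and S100a9 at 0 in 3 of the 4 gut libraries and the highest sum in WT spleen replicate 3. The part of these other cells in the tissue differences below was not tested. In bulk RNA, fewer cells of a type and less RNA per cell cannot be told apart.

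The largest pattern among the 9 genes was between tissues. In WT Tregs the 3 Nr4a genes were 20.58 to 27.53 times higher in gut than in spleen, Cd69 was 7.85 times higher, Ier3 7.45 times and Ier2 2.045 times, whereas Egr2 was 2.375 times lower. Egr1 and Egr3 did not pass the test. In Maf-KO Tregs the Nr4a genes were 24.66 to 29.32 times higher in gut, Cd69 9.17 times and Ier2 2.081 times, Egr2 was 3.513 times lower, and Egr1, Egr3 and Ier3 did not pass. A gene was called at a Benjamini-Hochberg adjusted p under 0.05 in edgeR's quasi-likelihood test. In WT 7 of the 9 genes were called (6 higher and 1 lower in gut) and in Maf-KO 6 of 9 (5 higher and 1 lower), where 28% and 28.5% of all tested genes were called (14.7% higher and 13.3% lower in WT, 14.4% and 14.1% in Maf-KO). With the replicate block as a random effect the calls over all genes in Maf-KO went from 3772 to 5777. The median log2 difference of the 9 genes was 2.90 in WT and 1.06 in Maf-KO, beside -0.03 and -0.02 over all genes tested. The median gene was Ier3 in WT and Ier2 in Maf-KO, and Nr4a2, Nr4a3, Cd69 and Ier2 had slightly higher estimates in Maf-KO than in WT. The tests of these differences are given with the genotype comparison.

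**Figure D1:**
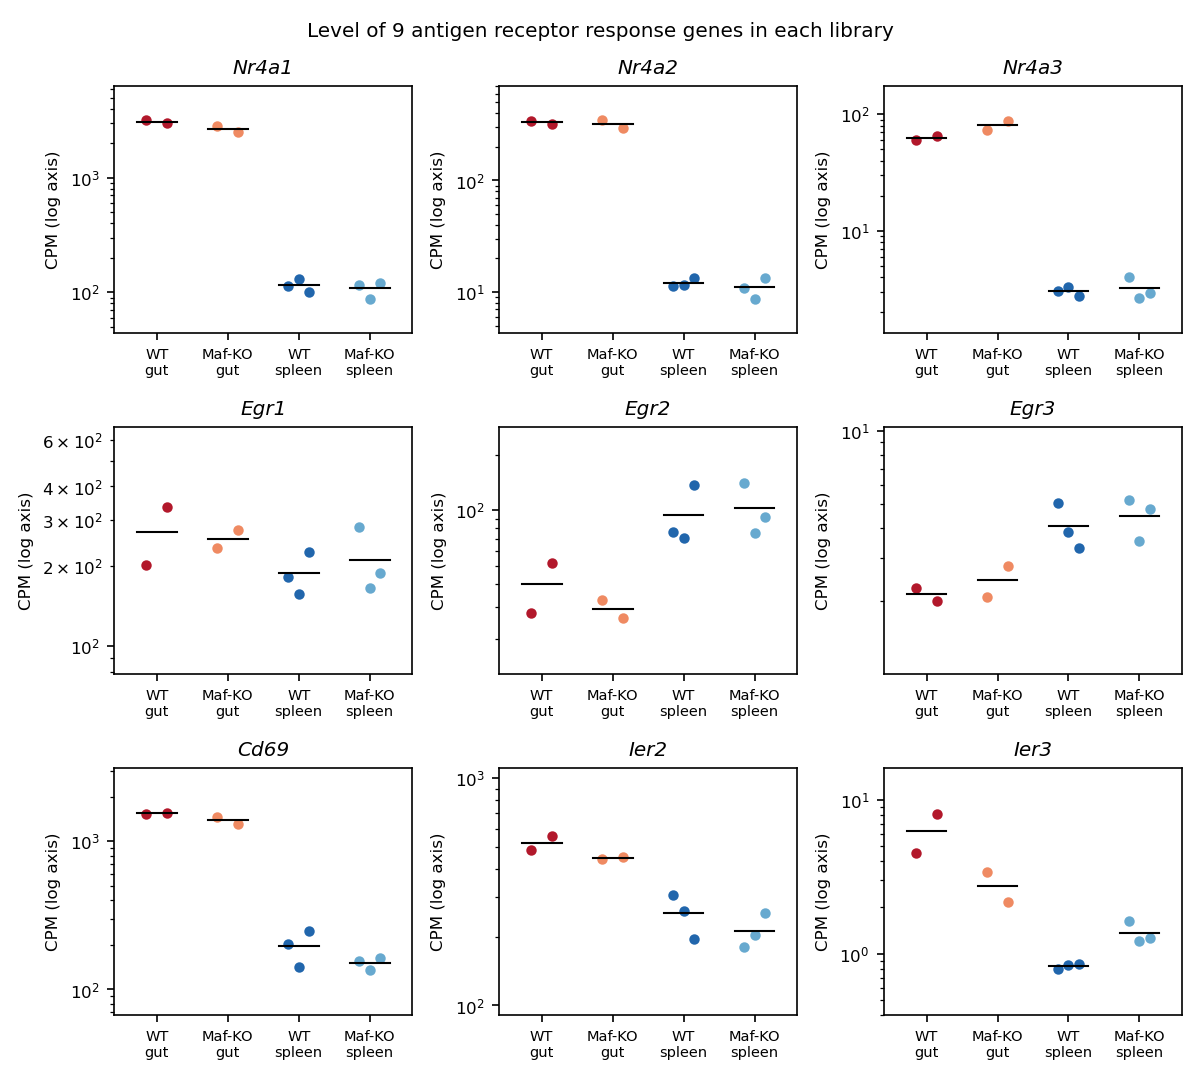
Level of each of the 9 genes in every library, in CPM on a log axis, with 1 point per library, a bar at the group mean, and a separate scale for each gene. Nr4a1, Nr4a2, Nr4a3, Cd69 and Ier2 are higher in every gut library than in every spleen library, Egr2 and Egr3 are lower, and Egr1 overlaps.

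Nr4a1, the family member most used as a reporter of recent receptor signalling, was at 3159 and 3026 CPM in WT gut, 2834 and 2524 in Maf-KO gut, 112.3, 131.7 and 100.1 in WT spleen, with 116.5, 88.19 and 121.1 in Maf-KO spleen. The 4 gut libraries stood far above the 6 spleen libraries, the WT gut pair lay just above the Maf-KO gut pair, and the spleen groups overlapped. The log2 difference between gut and spleen was 4.75 (SE 0.18, adjusted p = 1.85e-07) in WT and 4.62 (SE 0.18, adjusted p = 2.093e-07) in Maf-KO. Nr4a1 alone took 0.226 to 0.288% of all counts in the gut libraries, and 0.00935 to 0.0140% in the spleen libraries. By FPKM, the authors' level per kilobase of gene and per total counted reads, it ranked 29, 29, 32 and 34 of 12252 genes in the gut libraries and between 1614 and 2487 in the spleen libraries.

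Nr4a2 was at 344.0 and 318.8 CPM in WT gut, 351.4 and 295.7 in Maf-KO gut, 11.29, 11.55 and 13.28 in WT spleen, with 10.95, 8.59 and 13.4 in Maf-KO spleen. The genotypes overlapped in each tissue and the tissues were far apart. Its log2 difference was 4.78 (SE 0.17, adjusted p = 1.781e-07) in WT and 4.87 (SE 0.17, adjusted p = 2.093e-07) in Maf-KO. Nr4a3, which can stand in for Nr4a1 in T cells, was at 59.91 and 65.51 CPM in WT gut, 72.87 and 87.61 in Maf-KO gut, 3.02, 3.31 and 2.75 in WT spleen, with 4.01, 2.64 and 2.92 in Maf-KO spleen. Both Maf-KO gut libraries lay above both WT gut libraries, and the spleen groups overlapped at low levels. The log2 difference between tissues was 4.36 (SE 0.18, adjusted p = 3.963e-07) in WT and 4.65 (SE 0.19, adjusted p = 3.105e-07) in Maf-KO. These 3 genes kept their tissue calls in both genotypes under all 19 other settings tried.

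Per length, the 3 receptors stood in the same order in every library, with Nr4a1 highest, Nr4a2 next and Nr4a3 lowest. Nr4a1 was 10.17 to 15.39 times Nr4a2 and 21.90 to 40.10 times Nr4a3 in FPKM over the 10 libraries. In gut alone the first ratio was 10.90 to 12.82 and in spleen 10.17 to 15.39, so its ranges overlapped although the genes themselves differed more than 20-fold between tissues. The summed FPKM of the family was 1068 to 1364 in gut and 43.40 to 63.88 in spleen.

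The Egr genes did not follow the Nr4a genes. Egr1, the growth response factor induced through MAP kinase and serum response factor, was at 202.2 and 335.0 CPM in WT gut, 233.7 and 274.7 in Maf-KO gut, 182.6, 157.3 and 226.9 in WT spleen, with 281.0, 165.7 and 189.0 in Maf-KO spleen. All 4 groups overlapped with their neighbours in the order of means (WT gut, Maf-KO gut, Maf-KO spleen, WT spleen). The difference between gut and spleen was 0.51 on the log2 scale (95% interval -0.08 to 1.10, adjusted p = 0.1814) in WT and 0.26 (-0.33 to 0.85, adjusted p = 0.5007) in Maf-KO. With the number in the sample titles, which pairs gut and spleen libraries, as a fixed replicate block in edgeR, Egr1 passed in both genotypes, at 0.36 (adjusted p = 0.03844) in WT and 0.52 (adjusted p = 0.0073) in Maf-KO. With the same replicate block as a random effect in limma-voom it did not, at 0.42 (adjusted p = 0.09209) and 0.41 (adjusted p = 0.09425). Over all alternatives its adjusted p ran from 0.03844 to 0.8515 in WT and from 0.0073 to 0.993 in Maf-KO.

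Egr2, which raises inhibitors of receptor signalling, was at 27.76 and 51.79 CPM in WT gut, 32.52 and 25.93 in Maf-KO gut, 75.81, 70.89 and 137.4 in WT spleen, with 141.0, 74.97 and 91.96 in Maf-KO spleen. Every gut library was below every spleen library, and the genotypes overlapped in both tissues. Egr2 was lower in gut by a log2 difference of -1.25 (SE 0.38, adjusted p = 0.03329) in WT and -1.81 (SE 0.39, adjusted p = 0.006422) in Maf-KO. The WT call was lost without WT gut replicate 1 (-0.87, adjusted p = 0.2229) or WT spleen replicate 3 (-0.88, adjusted p = 0.08465), and the Maf-KO call without Maf-KO gut replicate 3 (-1.65, adjusted p = 0.06334). Over all alternatives the adjusted p ran from 0.0001447 to 0.2229 in WT and from 4.562e-06 to 0.06334 in Maf-KO.

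Egr3 was scarce, with 17 to 57 counts a library, at 2.26 and 2.01 CPM in WT gut, 2.09 and 2.79 in Maf-KO gut, 5.07, 3.85 and 3.32 in WT spleen, with 5.20, 3.52 and 4.77 in Maf-KO spleen. Its gut libraries also lay below its spleen libraries without overlap. The log2 difference of -0.93 (SE 0.33, adjusted p = 0.06313) in WT and -0.88 (SE 0.32, adjusted p = 0.0676) in Maf-KO missed the threshold. It passed with the replicate block as a random effect in limma-voom (-0.91, adjusted p = 0.02669 in WT and -0.80, adjusted p = 0.02115 in Maf-KO) and not with it as a fixed block in edgeR (adjusted p = 0.0545 and 0.08926), over alternatives that ran from 0.01092 to 0.2174 in WT and from 0.0129 to 0.2973 in Maf-KO. The corepressor Nab2 fell in gut with Egr2, by 0.91 on the log2 scale in WT (adjusted p = 0.005721) and by 0.99 in Maf-KO (adjusted p = 0.00357). Nab2 was at 33.28 and 40.56 CPM in WT gut, 38.78 and 34.87 in Maf-KO gut, 54.31 to 86.28 in spleen of WT and 68.38 to 79.71 in spleen of Maf-KO, and the tissues did not overlap. The WT call for Nab2 was lost without WT gut replicate 1 (-0.78, adjusted p = 0.06073), the highest value over its alternatives (lowest 0.0002114). The other corepressor, Nab1, named here after its values were seen, went the opposite way. Nab1 was at 331.5 to 386.5 CPM in gut and 162.9 to 291.3 CPM in spleen, and it rose in gut by a log2 difference of 0.88 in WT (adjusted p = 0.007587) and 0.73 in Maf-KO (adjusted p = 0.01842). The Maf-KO call for Nab1 was lost with replicate 2 (adjusted p = 0.06735) or 3 (0.09199) of Maf-KO gut left out, with replicate 2 (0.06009) or 3 (0.05372) of Maf-KO spleen left out, by library totals (0.0767) and on log2 FPKM (0.05877), over alternatives from 0.0008171 to 0.09199.

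**Figure D2:**
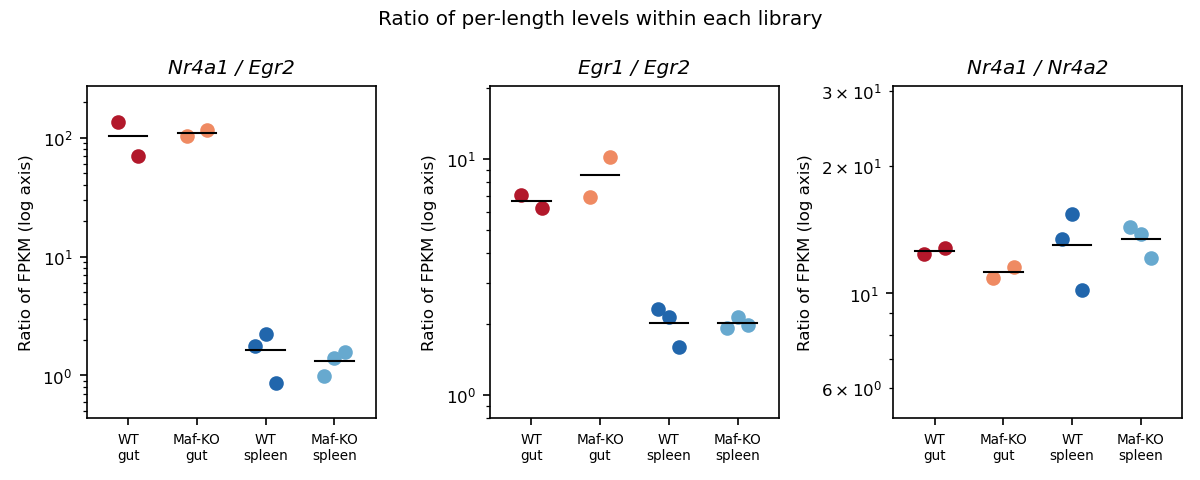
Ratios of per-length levels (FPKM) of gene pairs within each library, on log axes, with 1 point per library and a bar at the group mean. Nr4a1 over Egr2 lies at 69.89 to 136.1 in gut and 0.87 to 2.22 in spleen, while Nr4a1 over Nr4a2 stays between 10.17 and 15.39 in both.

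The contrast between the families is shown by their ratio within a library, which needs no scaling between libraries. Nr4a1 was 69.89 to 136.1 times Egr2 in FPKM in the gut libraries and 0.87 to 2.22 times Egr2 in the spleen libraries. Egr1 was 6.24 to 10.22 times Egr2 in gut and 1.59 to 2.32 times in spleen. The 3 Egr genes together summed to 74.29 to 118.0 FPKM in gut and 85.18 to 157.7 FPKM in spleen, with overlap. In gut the Nr4a sum was therefore the larger of these sums, and in every spleen library the Egr sum was.

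Cd69 was at 1530 and 1562 CPM in WT gut, 1461 and 1309 in Maf-KO gut, 201.7, 142.2 and 247.2 in WT spleen, with 156.4, 134.4 and 162.2 in Maf-KO spleen. The gut libraries were all above the spleen libraries, the WT gut pair lay above the Maf-KO gut pair, and the spleen groups overlapped. Its log2 difference between tissues was 2.97 (SE 0.20, adjusted p = 7.771e-06) in WT and 3.197 (SE 0.20, adjusted p = 6.193e-06) in Maf-KO, and both calls held in all 19 alternatives. Genes of lymphocyte exit moved the opposite way. Of 5 such genes, 4 fell in gut in WT and 3 in Maf-KO, and none rose (median log2 difference -1.77 and -1.82). Among all tested genes, 13.3% were called lower in gut in WT and 14.1% in Maf-KO. S1pr1, the exit receptor that CD69 removes from the surface, was at 72.09 and 93.77 CPM in WT gut, 81.05 and 157.6 in Maf-KO gut, 459.9 to 682.9 in WT spleen and 471.1 to 712.7 in Maf-KO spleen. It fell by 2.77 on the log2 scale in WT (adjusted p = 0.0001967) and by 2.32 in Maf-KO (adjusted p = 0.0004946).

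Ier2 was at 484.6 and 553.9 CPM in WT gut, 439.2 and 449.6 in Maf-KO gut, 306.9, 259.2 and 195.6 in WT spleen, with 181.6, 204.2 and 254.8 in Maf-KO spleen. Gut libraries were again all above spleen libraries, by a smaller step. Its log2 difference was 1.03 (SE 0.19, adjusted p = 0.0031) in WT and 1.06 (SE 0.19, adjusted p = 0.002696) in Maf-KO.

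Ier3 had few counts, 9 to 68 a library, and was at 4.52 and 8.04 CPM in WT gut, 3.39 and 2.15 in Maf-KO gut, 0.80, 0.85 and 0.85 in WT spleen, with 1.63, 1.21 and 1.27 in Maf-KO spleen. The 4 groups formed a ladder without overlap, WT gut above Maf-KO gut above Maf-KO spleen above WT spleen. The tissue difference was 2.90 on the log2 scale (SE 0.38, adjusted p = 0.0004436) in WT and 1.01 (SE 0.38, adjusted p = 0.07015) in Maf-KO, where it passed with the replicate block as a random effect (0.996, adjusted p = 0.03488) and not with it as a fixed block (1.12, adjusted p = 0.0644), over alternatives from 0.03488 to 0.3825.

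Beyond called genes, 8 of the 9 had no overlap between gut and spleen libraries in each genotype, Egr1 being the exception, where 53.4% of all tested genes had none in WT and 56.4% in Maf-KO. Scaled by library totals alone, an alternative chosen after seeing the data, the median of all genes moved by -0.27 in WT and -0.26 in Maf-KO on the log2 scale. The share of called genes that were higher in gut then went from 52.4 to 25.2% in WT and from 50.5 to 25.1% in Maf-KO. The 9 genes kept their directions between tissues under that scaling, and Egr3 passed the test (-1.20, adjusted p = 0.02113 in WT and -1.14, adjusted p = 0.02445 in Maf-KO).

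**Figure D3:**
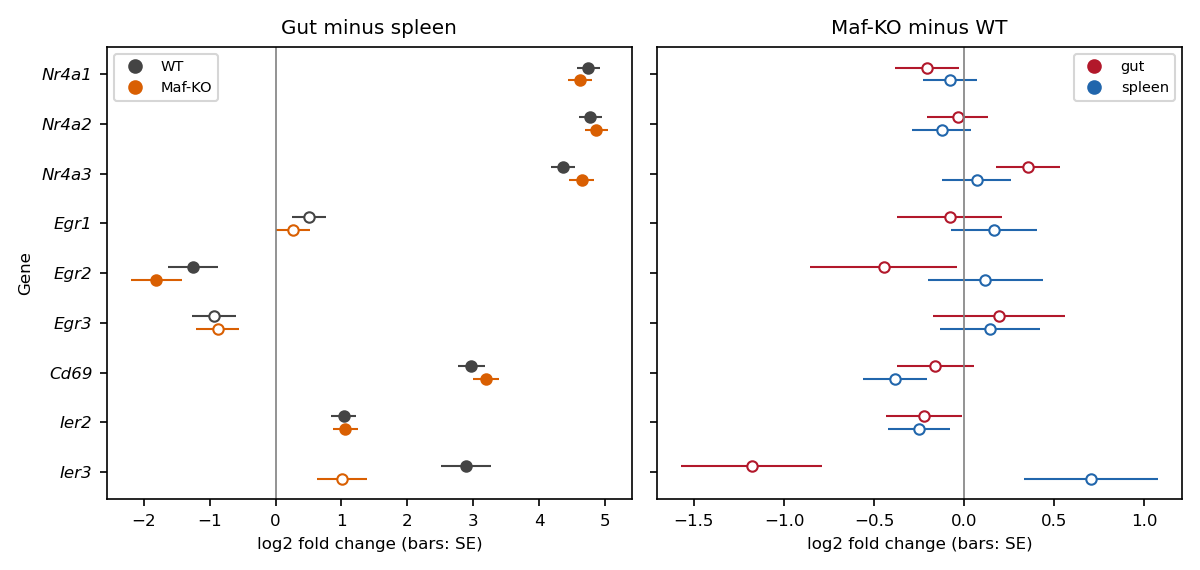
Log2 fold change of each gene between gut and spleen (left, by genotype) and between Maf-KO and WT (right, by tissue), with bars of 1 SE and filled points for calls at an adjusted p under 0.05. On the left the 3 Nr4a genes lie between 4.36 and 4.87 and Egr2 below 0, and on the right every point is open.

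Loss of c-Maf was the other comparison, and it addresses whether this early response depends on c-Maf in Tregs of either tissue. None of the 9 genes passed the test in gut or in spleen by edgeR's quasi-likelihood test or by DESeq2, and at an unadjusted p under 0.05 there was 1 in gut (Ier3) and 0 in spleen. Over all genes the calls were few as well, 20 in gut (0.151%) and 2 in spleen (0.0151%), with 1076 and 376 genes at an unadjusted p under 0.05 and 112 and 18 calls by DESeq2. The intervals give what these libraries could still hold. In gut, the 95% interval of the Maf-KO minus WT log2 difference was -0.61 to 0.19 for Nr4a1, -0.41 to 0.34 for Nr4a2 and -0.04 to 0.75 for Nr4a3. For the zinc finger genes it was wider, -0.73 to 0.57 for Egr1, -1.36 to 0.46 for Egr2 and -0.62 to 1.01 for Egr3. Cd69 had -0.64 to 0.32 and Ier2 -0.69 to 0.25.

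In spleen the intervals were -0.41 to 0.25 for Nr4a1, -0.49 to 0.24 for Nr4a2, -0.36 to 0.50 for Nr4a3, -0.36 to 0.70 for Egr1, -0.59 to 0.83 for Egr2 and -0.48 to 0.76 for Egr3. Cd69 had a log2 difference of -0.38 (-0.78 to 0.02, unadjusted p = 0.05776, adjusted p = 0.9993) and Ier2 of -0.25 (-0.64 to 0.14). For Nr4a1, genotype effects from -0.61 to 0.19 in gut and from -0.41 to 0.25 in spleen lie within these intervals. An effect of the size of its tissue difference, 4.75 in WT and 4.62 in Maf-KO, lies outside them. In gut 5 of the 9 genes had no overlap between the genotypes (Nr4a1, Nr4a3, Cd69, Ier2 and Ier3), where 36.2% of all tested genes had none. In spleen 1 gene had none, Ier3, where the share over all genes was 7.51%.

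Ier3 differed most between the genotypes, in opposite directions in the tissues. Its log2 difference was -1.18 in gut (SE 0.39, unadjusted p = 0.01321, adjusted p = 0.4692) and 0.71 in spleen (SE 0.37, unadjusted p = 0.08761, adjusted p = 0.9993). The test of the difference between these effects gave -1.89 (SE 0.54, unadjusted p = 0.00589, adjusted p = 0.9999), so it was not called over all genes. Its adjusted p over the alternatives ran from 0.3864 to 1. For the other 8 genes this difference lay between -0.56 (Egr2) and 0.29 (Nr4a3). Over all genes, 0 were called by edgeR for this difference (0%), with 422 at an unadjusted p under 0.05, and 8 by DESeq2.

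Other genes of the receptor pathway, together with heat shock genes and genes of lymphocyte exit, were read from 7 lists. The list of lymphocyte exit is given above with Cd69. Beside the counts of each list, 28% of all tested genes were called between tissues in WT (14.7% higher and 13.3% lower in gut). In Maf-KO the share was 28.5% (14.4% and 14.1%). Among 19 genes of the receptor complex and proximal signalling, 2 rose and 2 fell in gut in WT, and 5 rose and 1 fell in Maf-KO. These counts were near the shares over all genes, and the medians were 0.12 and 0.16. Bcl10, an adaptor between the receptor and NF-kappaB, rose by a log2 difference of 1.26 in WT (adjusted p = 2.658e-05) and 1.29 in Maf-KO (adjusted p = 2.444e-05). Prkcq, the kinase PKC theta upstream of it, fell by 1.48 (adjusted p = 2.614e-05) and 1.24 (adjusted p = 8.079e-05). The Maf-KO count went from 6 to 10 (8 higher, 2 lower) with the replicate block, and to 2 with replicate 3 of Maf-KO gut or replicate 2 of Maf-KO spleen left out, or 3 with replicate 3 of Maf-KO spleen left out.

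Brakes on receptor signalling were divided, with 5 higher, 4 lower and 9 not called of 18 in WT and 8, 4 and 6 in Maf-KO. The adaptor Sla, which promotes receptor degradation, rose by 1.59 in WT (adjusted p = 0.0001279) and 1.65 in Maf-KO (adjusted p = 0.0001096). Dgkz and Dgka, kinases that remove diacylglycerol and that Egr2 is known to activate in anergic cells, fell by 1.56 (adjusted p = 4.72e-05) and 1.10 (adjusted p = 0.0004436) in WT. In Maf-KO they fell by 1.16 (adjusted p = 0.0002828) and 0.76 (adjusted p = 0.003245). The Maf-KO count of 12 brakes fell to 7 without either Maf-KO gut replicate.

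**Figure D4:**
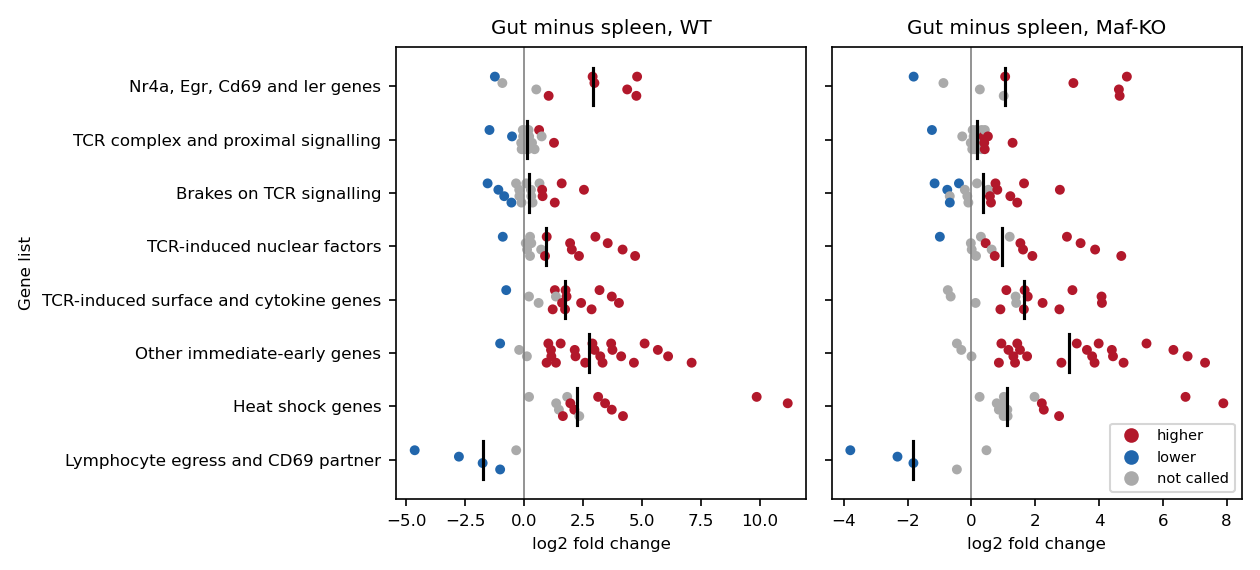
Log2 fold change between gut and spleen of every tested gene of the 9 genes and of 7 lists, in WT (left) and Maf-KO (right), coloured by call, with a bar at each list's median. The panels have separate scales, and the immediate-early list has the highest median among the 7 lists, 2.74 in WT and 3.06 in Maf-KO.

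Downstream lists were shifted towards gut. Of 16 receptor-induced nuclear factors, 9 rose and 1, Nab2, fell in each genotype (medians 0.91 and 0.97). Rel, the NF-kappaB subunit c-Rel, rose by 3.54 in WT (adjusted p = 1.518e-07) and 3.42 in Maf-KO (adjusted p = 2.093e-07), and Bhlhe40, a repressor linked to tissue residency, by 4.70 in both (adjusted p = 2.546e-05 and 2.664e-05). Of 15 tested surface and cytokine genes out of 16, 11 rose and 1 fell in WT, and 10 rose in Maf-KO (medians 1.73 and 1.64). The inhibitory receptor Ctla4 rose by 3.71 (adjusted p = 1.907e-06) and 4.09 (adjusted p = 1.105e-06), and the chemokine Xcl1 by 4.01 (adjusted p = 7.771e-06) and 4.08 (adjusted p = 7.151e-06). The gene that fell in WT was Il2ra, the high affinity IL-2 receptor chain, by 0.77 (adjusted p = 0.0293), and that call was lost without WT gut replicate 1 (adjusted p = 0.1325), WT gut replicate 3 (0.103) or WT spleen replicate 2 (0.08389), with alternatives from 0.002863 to 0.1325.

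Other immediate-early genes had the highest median of the 7 lists. Of 24 tested out of 25, 21 rose and 1, Klf2, fell in WT, and 21 rose in Maf-KO (2.74 in WT and 3.06 in Maf-KO). Dusp5, a phosphatase that switches off ERK, rose by 3.74 in WT (adjusted p = 1.535e-06) and 3.99 in Maf-KO (adjusted p = 9.811e-07). Gadd45b, a stress response gene, rose by 4.65 (adjusted p = 7.401e-06) and 4.77 (adjusted p = 6.988e-06). The summed level of the list was 28260 to 34460 CPM in gut and 6025 to 9150 CPM in spleen. Klf2, which drives S1pr1, fell by 1.03 in WT (adjusted p = 0.02742), a call lost without WT gut replicate 1 (adjusted p = 0.1953), WT spleen replicate 1 (0.06336) or WT spleen replicate 2 (0.08067), with alternatives from 0.002089 to 0.1953.

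Heat shock genes, which respond to damaged protein, moved with tissue too. Of 14, 9 rose in gut in WT and 5 in Maf-KO, and none fell (medians 2.23 and 1.13). Their summed level was 10140 and 32920 CPM in WT gut, 16080 and 5238 in Maf-KO gut, 1809 to 3833 in WT spleen and 1527 to 5194 in Maf-KO spleen. Hspa1a, an inducible HSP70, stood at 640.1 to 6095 CPM in gut and at 0.18 to 16.84 CPM in spleen. Within each gut genotype the 2 libraries were far apart in this sum. In both genotypes Egr2, Cd69 and Ier3 were higher in the library with the higher sum, and Egr3 was lower. Egr1, Nr4a3 and Ier2 were higher in that library in WT gut and lower in Maf-KO gut. Nr4a1 and Nr4a2 were lower in it in WT gut and higher in Maf-KO gut. Nr4a1 was close between the libraries of a genotype. With the replicate block as a fixed term 13 rose in Maf-KO, by DESeq2 3 did, and without WT gut replicate 3 there were 5 calls in WT. The part of this list in the differences of the 9 genes was not tested, and a library's tissue and the preparation of cells from it cannot be told apart here.

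With loss of c-Maf, no gene of the 7 lists was called by edgeR's test in either tissue. At an unadjusted p under 0.05 there were in gut 3 brakes, 2 surface genes, 1 immediate-early gene and 1 heat shock gene, and in spleen 2 surface and 2 immediate-early genes. Of the 24 immediate-early genes 9 had a positive difference in gut (median -0.14) and 1 in spleen (median -0.21). Of the 14 heat shock genes 0 had one in gut (median -0.67) and 12 in spleen (median 0.24). The medians over all genes were -0.0035 in gut and -0.0064 in spleen.

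Across the 10 libraries, Nr4a1 ran with Nr4a2 (r = 0.998 on log2 CPM) and Cd69 (r = 0.985) and against Egr2 (r = -0.875), values that mostly restate the difference between tissues. With each library centred on its group mean, the r was 0.557 for Nr4a1 with Nr4a2, -0.264 with Cd69 and -0.0466 with Egr2. Egr1 and Egr2, at r = -0.154 over all libraries, had 0.887 within groups. Egr2 also ran with Ier3 (0.721) and Cd69 (0.643) within groups. Libraries share depth and preparation across genes, and the correlations before centring are descriptions over 10 points. Those within groups rest on fewer, as centring on 4 group means leaves 6 degrees of freedom. The 2 centred libraries of each gut genotype mirror each other. The genes whose levels most resembled the mean standardised profile of the 9 were Mvb12b (r = 0.985), Larp7 (0.978), Zfp36l1 (0.978), Cited2 (0.978) and Trim13 (0.977) over the 10 libraries. Egr2 and Egr3 themselves ran against that mean (r = -0.688 and -0.772), while the other 7 had r of 0.779 or more. After centring on groups the genes most like the mean profile were Gas8 (0.958), Isyna1 (0.946), Casp6 (0.942), Ddx39b (0.940) and Sbf1 (0.939). Both sets were picked as the highest r among all genes searched.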

How the data were processed

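RNA of 10 libraries of sorted Tregs was read from the count table that the authors deposited, which holds raw read counts per Entrez gene. Subread, featureCounts and limma, with GRCm38 (mm10) as the build, appear in the submitters' processing notes. Which annotation release, aligner version or strand setting was used is not given in the sources used here, so reads of overlapping antisense genes may be included. The authors also deposited log2 FPKM values of 12252 genes per library, and each of the 10 files matched its own counts best. FPKM levels were taken back from these log2 values for comparisons per length.

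The analysis used edgeR 4.0.16 in R 4.3.3, with filterByExpr (minimum count 10, minimum total 15), TMM factors of 0.887 to 1.12, and a single quasi-likelihood fit of the 4 group coefficients (common dispersion of 0.0431 and 3.97 prior degrees of freedom). The 852 entries lacking a symbol held 0.173 to 0.203% of counts and stayed in. P-values were two-sided and adjusted by Benjamini-Hochberg over the 13214 genes of each contrast. The SE is the absolute log2 fold change divided by the square root of F. CPM uses TMM-scaled totals, and correlations use log2 CPM with a prior count of 2. Replicates of a group differed beyond counting (chi-square per degree of freedom 14.2 to 34.2). Alternatives included DESeq2 1.42.0, limma 3.58.1 (voom, and trend on the log2 FPKM), other scalings, no filter, the compared groups alone, a replicate block, and each library left out. Scaling by library totals was added after seeing the data.

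The titles give 4 pairs of gut and spleen libraries a shared number. Deviations from the group means correlated at 0.313, 0.255, 0.382 and 0.36 within these pairs. With 2 gut libraries a genotype, their deviations mirror each other, so the values of a genotype are not independent. The number was treated as pairing the libraries in the blocked alternatives (correlation of 0.509 within a number in limma-voom). The main fit did not use it, and blocked values stand beside results that they change. Replicate numbers shared by the genotypes did not pair spleen libraries (-0.0394, -0.183 and -0.347).

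The 9 genes and all lists were chosen with earlier results of these data known. Named were the 9 genes, Maf and Foxp3, up to 4 called genes per direction, list and contrast by adjusted p (2 by unadjusted p where none passed), and the 5 genes with the highest Pearson r to the mean standardised profile (mean CPM of at least 5, no predicted gene). From these the text gives a selection. Of the genes that the rule names, 1 is not reported here. Promoter sequences are RefSeq windows.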

Additional observations from a re-analysis of the deposited data

How the results depend on the processing

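The tissue calls of Nr4a1, Nr4a2, Nr4a3, Cd69 and Ier2 held in both genotypes, and that of Ier3 in WT, under all 19 alternatives, and no tissue difference of the 9 genes reversed. The count of called genes among the 9 stayed at 6 to 8 in WT and 5 to 8 in Maf-KO between tissues, and at 0 in both genotype comparisons and their difference. Of the genotype differences, 30 values reversed sign, all with an absolute log2 value of at most 0.3331 and an adjusted p of at least 0.7662. The cause was not tested. With the replicate block as a random effect Egr1 in gut was 0.14, and Ier2 in the difference of the genotype effects was -0.051. With it as a fixed block that difference was 0.16 for Egr1 and -0.12 for Ier2. Apart from the calls of Egr1, Egr3 and Ier3 given above, the replicate block changed no call of the 9 genes. A replicate block by the number shared between genotypes in spleen called 0 of the 9 and 0 of all genes.

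Leaving out 1 library at a time moved the gut genotype difference over -0.163 to 0.0907 for Nr4a2, -0.39 to 0.33 for Egr1, -0.819 to 0.077 for Egr2 and -0.0261 to 0.388 for Egr3. In spleen the ranges were -0.168 to 0.0486 for Nr4a1, -0.30 to 0.021 for Nr4a2, -0.12 to 0.18 for Nr4a3, -0.0914 to 0.319 for Egr1 and -0.18 to 0.49 for Egr2. For the difference of the effects they were -0.0564 to 0.265 for Nr4a2, -0.56 to 0.17 for Egr1, -0.17 to 0.25 for Egr3 and -0.14 to 0.18 for Ier2. Among other named genes 63 of their tissue values missed the threshold under an alternative and 1245 did not.

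Over all genes, calls between genotypes ran from 4 to 112 in gut (main 20) and from 0 to 18 in spleen (main 2), those for the difference of effects from 0 to 8, and those between tissues from 2183 to 5498 in WT (main 3703) and from 2118 to 5777 in Maf-KO (main 3772). The lowest tissue counts came with replicate 1 of WT gut or replicate 3 of Maf-KO gut left out, and the highest Maf-KO count with the replicate block. With 2 gut libraries a genotype, a library left out leaves a single one, assumed to vary like the other groups. Egr3 and Ier3 rest on 9 to 68 counts a library.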

Other observations

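Fasl, the death ligand that activated T cells display and a gene of the surface and cytokine list, came nearest to a genotype call among the genes of the 7 lists. It was at 123.6 and 96.61 CPM in WT gut, 208.4 and 194.1 in Maf-KO gut, 15.91, 12.62 and 17.26 in WT spleen, with 22.33, 22.57 and 22.31 in Maf-KO spleen. The Maf-KO libraries were above the WT libraries in each tissue, without overlap. Of all tested genes, 36.2% in gut and 7.51% in spleen had no overlap between the genotypes, in either direction. In gut the log2 difference was 0.87 (edgeR, adjusted p = 0.09622), and in spleen it was 0.56 (adjusted p = 0.9993). The adjusted p in gut ran over the alternatives from 0.0007114 to 0.3889. In gut Fasl passed in 4 of 18 alternatives. These were no filter on low counts (adjusted p = 0.01571), DESeq2 (0.0007114), limma-voom (0.04346) and the replicate block as a random effect (0.03266). No other gene of the lists was followed over the alternatives for genotype.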
